A study of Desmophyllum pertusum with 36 samples.

Results

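Transcripts that were less abundant at pH 7.6 than at pH 7.9 in every pair of libraries labelled with the same colony and week were examined in polyps of Lophelia pertusa (Desmophyllum pertusum), a coral of cold water. They were chosen by their own values. Counts were divided by the library total and scaled to a common total (CPM, or counts per 1000000), and d is the difference of log2(CPM + 0.5), pH 7.6 minus pH 7.9, between the 2 libraries of the same colony and week. There were 9 such pairs. Among 41829 transcripts with a mean of at least 1 CPM and outside the 100 of highest mean CPM, d was below 0 in all 9 pairs for 195, and the members are the 100 of these with the most negative mean d. They are 100 of the 75743 transcripts in the table. Another 206 transcripts were higher at pH 7.6 in all 9 pairs. The members' lower level at pH 7.6 follows from this choice. It is described here and was not tested.

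The libraries came from RNA of polyps of coral fragments. The lower pH, 7.6, was set against pH 7.9, and per the design text both regimes were kept up for 4 months, and polyps were taken at week 2, week 4.5 and week 8.5. Each regime held fragments of the same 3 genetically distinct colonies, numbered 1, 3 and 4, and no other treatment is named. There was thus 1 library for each colony, week and pH: 9 at pH 7.6 and 9 at pH 7.9, with 3 for each combination of week and pH. The labels number the time points, which were matched to the weeks in the order of the design text. A colony was sampled repeatedly over the 3 weeks, and the labels do not say whether fragments stood in separate tanks, so p-values measure only the spread between these libraries.

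Lophelia pertusa is a stony coral that builds reefs in dark, cold water and lives without photosynthetic algae. Stony corals lay down their aragonite skeleton in a thin fluid beneath the tissue, and they raise the pH of that fluid above that of seawater by moving ions across the calcifying cell layer. Seawater of lower pH holds less carbonate, so ion transport, skeletal matrix proteins and energy metabolism are the processes most often examined in such experiments. The table numbers its transcripts and does not pair them with gene names. None of the 100 members is therefore given a function here, and the label polyp was not checked against marker genes. In RNA of whole polyps, fewer cells of a type and less RNA per cell cannot be told apart.

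Library totals ran from 18042191 to 25651213 counts. Clustered on the kept transcripts that are not members, the libraries fell into 3 sets that followed the colony labels in all but 5 libraries. The median Spearman correlation was 0.929 within sets and 0.828 between them. Colony 1 was in set A at week 2 and, at weeks 4.5 and 8.5, in set A at pH 7.6 and in set B at pH 7.9. Colony 3 was in set B at pH 7.6, and at pH 7.9 it was in set C at week 2 and in set A later. Colony 4 was in set C throughout. The 5 libraries outside the main set of their colony were all at pH 7.9. Whether they carry the label of another colony was not tested. The labels are used as given, and every pair, colony value and difference between colonies that includes these libraries depends on them. In 4 pairs, that of colony 1 at week 2 and the 3 of colony 4, both libraries were in 1 set. In the other 5 pairs the pH and the set differed together and cannot be told apart.

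Together the members made up a smaller part of the RNA at pH 7.6. Their summed level was 1702 ± 397 CPM at pH 7.6 and 2817 ± 527 CPM at pH 7.9 (SD, n = 9 each). In colonies 1, 3 and 4, the sum at week 2 was 1552, 1894 and 1439 CPM at pH 7.6, against 2192, 3148 and 2677 CPM at pH 7.9. At week 4.5 it was 1821, 1948 and 2498 CPM at pH 7.6, against 2993, 2684 and 3897 CPM at pH 7.9. At week 8.5 it was 1479, 1099.5 and 1588 CPM at pH 7.6, against 2529, 2216 and 3012 CPM at pH 7.9. The 3 libraries at pH 7.6 lay below the 3 at pH 7.9 at each week. Over all weeks the groups overlapped, because colony 4 at pH 7.6 and week 4.5 stood above colony 1 at pH 7.9 and week 2 and above colony 3 at pH 7.9 and week 8.5.

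**Figure D1:**
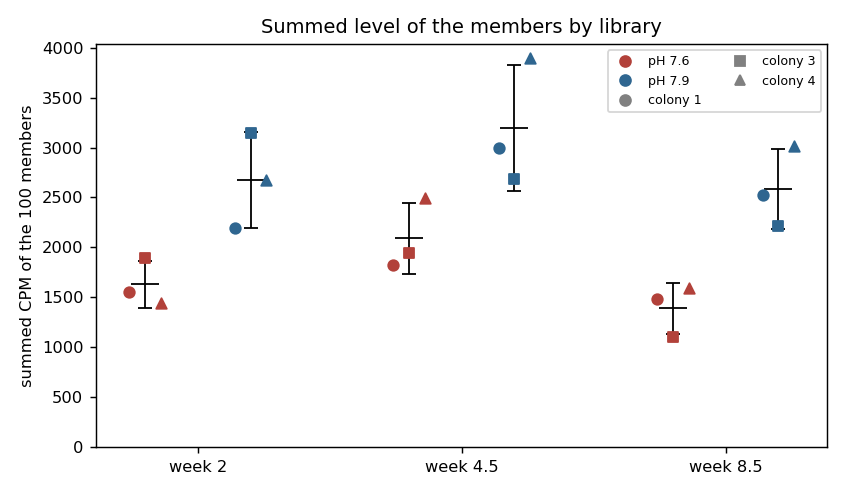
Summed CPM of the 100 members (y axis) in each of 18 libraries, by week (x axis), with pH 7.6 in red and pH 7.9 in blue, the colony as the marker, and the mean and SD (n = 3) as black bars. At each week the 3 red points lie below the 3 blue points, and both groups are highest at week 4.5.

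The differences were mostly below 2-fold. The mean d of a member ran from -2.11 to -0.55 with a median of -0.73, which corresponds to a level 1.65-fold lower at pH 7.6 on the scale of CPM + 0.5. Of the 100 members, 5 had a mean d below -1.5, 18 below -1, 31 between -1 and -0.75, and 51 above -0.75. The median of mean d over all kept transcripts was 0.01. The 3 members just inside the limit had a mean d of -0.554, -0.551 and -0.55, and the 3 transcripts just outside had -0.547, -0.541 and -0.539. The limit thus cuts through a continuous range of values.

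The requirement of 9 negative pairs was met narrowly by many members. The pair with the weakest difference had a median d of -0.11 over members, and in 46 members it was above -0.1. In 22 it was below -0.25 and in 4 below -0.5. The pair with the strongest difference had a median d of -1.56. The standard deviation of d over the 9 pairs had a median of 0.50 over members and 0.62 over all kept transcripts. The requirement of 9 negative pairs limits this spread, so nothing is read from the difference.

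Most members overlapped between the pH levels when all libraries were pooled. In 1 member all 9 libraries at pH 7.6 were below all 9 at pH 7.9, and this member was the only such transcript among those kept (0.00239%). It had rank 75, and its highest level at pH 7.6 was 4.07 CPM, just under its lowest at pH 7.9, 4.20 CPM. Within single weeks, where 3 libraries stood against 3, the groups did not overlap in 42 members at week 2 (3.12% of all kept transcripts were lower without overlap), 35 at week 4.5 (3.58%) and 74 at week 8.5 (5.09%). These counts rest in part on the differences within a colony and week that the rule used, and nothing is read from them.

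The member with the most negative mean d was Transcript_38548. Its lowest, median and highest levels were 3.97, 47.9 and 88.0 CPM in the 9 libraries at pH 7.6, against 51.9, 137 and 312 CPM in the 9 at pH 7.9. The groups overlapped, and the difference was uneven over time. At week 8.5 colonies 1, 3 and 4 had 87.2, 5.73 and 3.97 CPM at pH 7.6, against 124, 127 and 51.9 CPM at pH 7.9. Its d at week 8.5 was -0.50 in colony 1, -4.36 in colony 3 and -3.55 in colony 4, so that colony 1 differed far less than the other two at that week. At week 4.5 the colonies were close to each other, with 56.1, 47.9 and 47.1 CPM at pH 7.6 against 268, 195 and 240.2 CPM at pH 7.9.

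The next member, Transcript_39539, averaged 1.72 CPM at pH 7.6 and 7.73 CPM at pH 7.9. Its lowest, median and highest levels were 0.271, 1.34 and 6.80 CPM at pH 7.6, against 2.61, 5.28 and 14.5 CPM at pH 7.9. Its weakest pair was colony 4 at week 4.5, with a d of -1.01, the strongest value that a weakest pair reached in any member. The 2 libraries of that pair had 6.80 CPM at pH 7.6 and 14.3 CPM at pH 7.9. The 8 other libraries at pH 7.6 stood at or below 2.09 CPM.

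Of the 3 other members with a mean d below -1.5, those of ranks 3 and 4 were weakest in colony 3 and strongest in colonies 1 and 4. The member of rank 3 averaged 11.4 ± 9.17 CPM at pH 7.6 and 32.4 ± 17.3 CPM at pH 7.9 (SD, n = 9 each), with a mean d of -2.04, -1.09 and -2.06 in colonies 1, 3 and 4. The member of rank 4 averaged 5.66 ± 4.19 CPM at pH 7.6 and 16.04 ± 9.14 CPM at pH 7.9 (SD, n = 9 each), with a mean d of -1.76, -0.58 and -2.38. The member of rank 5 was weakest in colony 1 and strongest in colony 3, with -1.05, -2.02 and -1.65 in these colonies, and its lowest, median and highest levels were 6.70, 11.3 and 28.7 CPM at pH 7.6, against 24.1, 35.7 and 62.1 CPM at pH 7.9. It overlapped between the pH levels, since 28.7 CPM, in colony 4 at week 4.5, stood above the 24.1 CPM of colony 3 and the 27.6 CPM of colony 1 at pH 7.9 and week 8.5.

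The member with the highest mean CPM at pH 7.9 was Transcript_63452. CPM is not corrected for transcript length, so the order of levels between transcripts also depends on length. It had 265 ± 107 CPM at pH 7.6 and 394 ± 89.4 CPM at pH 7.9 (SD, n = 9 each). In colonies 1, 3 and 4 at week 8.5 it had 121, 109 and 169 CPM at pH 7.6, against 258, 266 and 456 CPM at pH 7.9. At that week the groups did not overlap. The mean d was -0.30, -0.43 and -1.27 at weeks 2, 4.5 and 8.5.

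**Figure D2:**
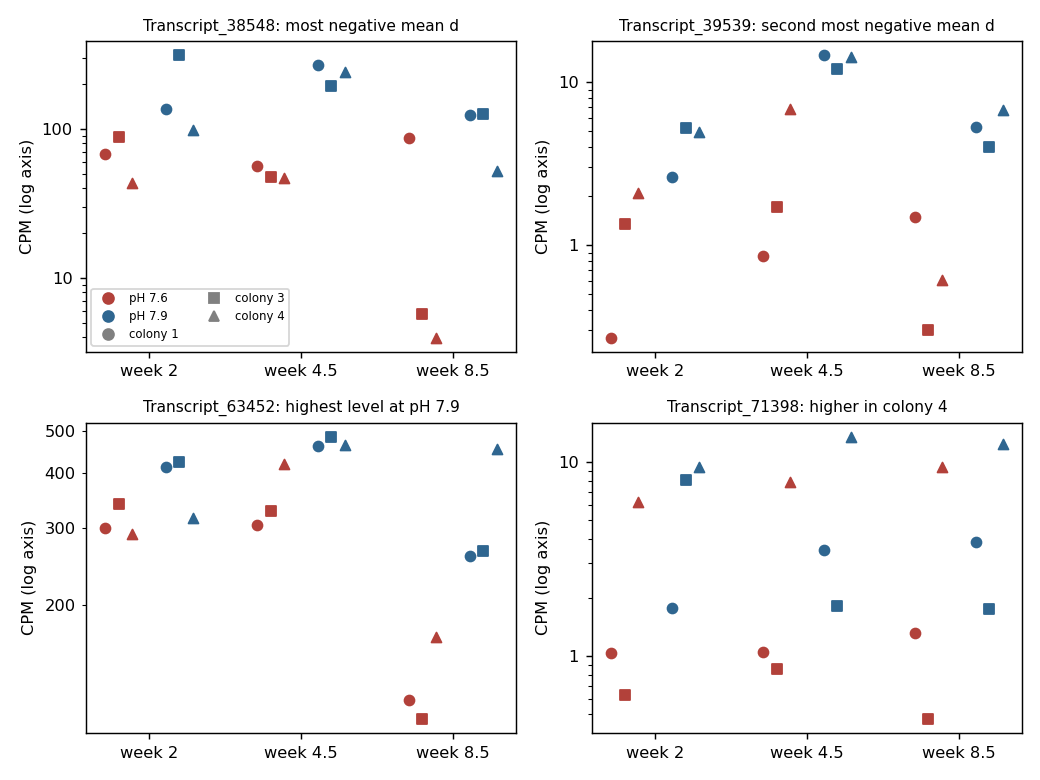
CPM on a log axis (y) in each library, by week (x), for 4 members, with pH 7.6 in red left of pH 7.9 in blue and the colony as the marker. Transcript_38548 stands at 5.73 and 3.97 CPM at week 8.5 in colonies 3 and 4 at pH 7.6, and Transcript_71398 is highest in colony 4 at each week and pH.

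The members differed in level and their d was somewhat larger at low levels. Their mean CPM over all libraries ran from 1.17 to 329 with a median of 7.86, against a median of 6.11 over all kept transcripts. With the members split by level into 4 groups of equal size, the median of mean d from the lowest to the highest group was -0.77, -0.78, -0.70 and -0.63. Across the 100 members, Spearman's correlation of the size of mean d with mean log2 CPM was -0.27, and across all kept transcripts it was -0.04. These are correlations across transcripts of the same libraries, which share depth, and they are given as a description.

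Counting error was small for most single differences and not for all. A member had a median of 3028 counts summed over the 18 libraries, and the lowest sum was 456. Of the 900 single differences, 701 lay beyond their own exact Clopper-Pearson 95% interval, which covers counting error only. The choice of negative d favours such differences, and the share over all kept transcripts was not computed. All 9 differences did so in 16 members, and 5 or fewer did in another 16. In the first lane alone 74 members were below 0 in all 9 pairs, and in the second lane alone 68 were. In these, 866 and 863 of the 900 differences were below 0. Lanes are repeat runs of the same library and were summed elsewhere, so each lane is a part of the counts that the rule used.

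Reads were present in nearly every library. Transcript_59651, which had 0 counts in 2 libraries at pH 7.6, was the only member with a library at 0. There 3 counts, the limit that a count of 0 allows, correspond to 0.126 and 0.123 CPM. Of all kept transcripts, 2.28% had a library at 0. None of the members had 0 counts in one library and 100 or more in another, a pattern found in 1.55% of kept transcripts. Both counts of members are near these shares, and nothing is read from them.

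The members were lower by different amounts in the 9 pairs. Their median d in colony 1 was -0.60, -0.54 and -0.82 at weeks 2, 4.5 and 8.5. In colony 3 it was -0.56, -0.37 and -0.92, and in colony 4 it was -0.91, -0.71 and -1.17. In each colony the difference was thus smallest at week 4.5 and largest at week 8.5. The median d of all kept transcripts lay between -0.22, in colony 3 at week 2, and 0.18, in colony 3 at week 4.5. Members with a d below -1 numbered 11 in colony 3 at week 4.5, the lowest count, and 58 in colony 4 at week 8.5, the highest.

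**Figure D3:**
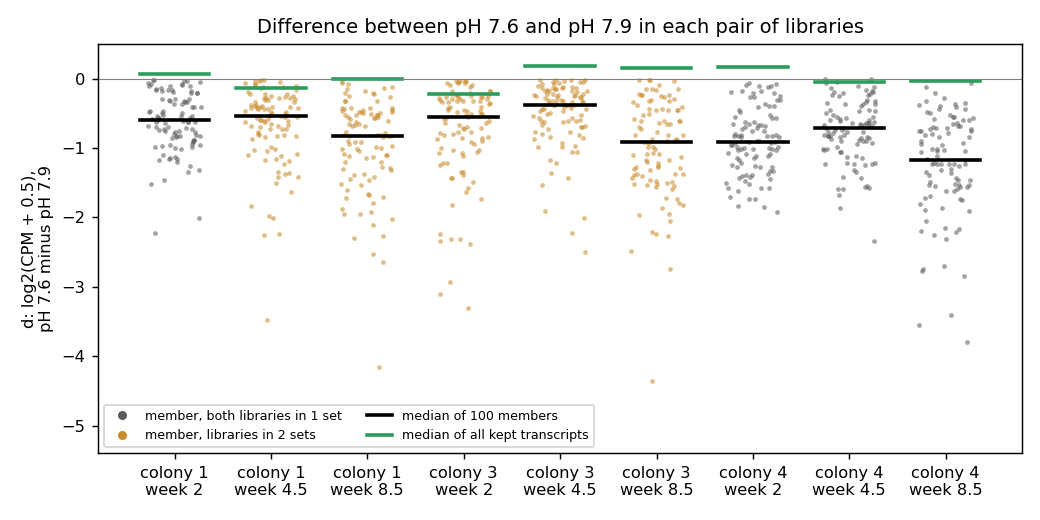
Difference d on the log2 scale (y axis) of each member (points) in the 9 pairs of libraries (x axis), in grey where both libraries were in 1 set and in ochre where they were in 2, with the median of the members in black and of all kept transcripts in green. The black lines lie between -1.17 and -0.37 and the green lines between -0.22 and 0.18.

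Taken by week, the median d of members was -0.73 at week 2, -0.58 at week 4.5 and -0.97 at week 8.5, and the mean d was most negative at week 2 in 27 members, at week 4.5 in 5 and at week 8.5 in 68. By colony, the medians were -0.68 in colony 1, -0.69 in colony 3 and -0.92 in colony 4, and 24, 25 and 51 members were most negative there. The weakest pair of a member was most often colony 3 at week 4.5, in 27 members. The strongest was most often colony 4 at week 8.5, in 26, or colony 3 at week 8.5, in 25.

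The rule required a d below 0 in every pair, so for pairs within 1 library set only the size of the difference is described. The median d was -0.81 in the 4 pairs within 1 set and -0.72 in the 5 pairs across sets, and 64 members were more negative in the pairs within 1 set. Between the libraries at pH 7.6 and those at pH 7.9 within set A, with 3 and 3 libraries, 100 members were lower, with a median difference of -0.56. Within set B, with 3 and 2, 98 were lower with a median of -0.86, and within set C, with 3 and 4, 100 were lower with a median of -0.86. Of all kept transcripts, 41.6%, 58.7% and 46.7% were lower at pH 7.6 in sets A, B and C. These contrasts reuse the libraries of the rule and are a description.

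Which transcripts made up the list depended on which pairs were used. The rule was applied again without each colony, without each week, and in only the 4 pairs within 1 set, and each new list of 100 was then read in the pairs left out. The list chosen without colony 1 held 6 of the members, and 6 of its 100 transcripts were lower at pH 7.6 in all 3 pairs of colony 1, against 17.9% of all kept transcripts. Its median d in colony 1 was 1.37, so most of it was higher at pH 7.6 there. At weeks 4.5 and 8.5 colony 1 was in set A at pH 7.6 and in set B at pH 7.9, and colony 3 was the reverse. A difference between sets A and B thus has opposite signs in d of these colonies. It cannot be told apart from pH in those pairs, and its part in these shares was not tested. Without colony 3 the list held 8 of the members, 8 of 100 were lower in all 3 pairs of colony 3, against 16.2%, and the median d there was 0.24. Without colony 4 it held 53, and 54 of 100 were lower in all 3 pairs of colony 4, against 18.4%, with a median d of -0.56.

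The lists without 1 week stood above all kept transcripts. Chosen without week 2, 22 of 100 were lower in all 3 pairs of that week, against 12.3% of kept transcripts. Without week 4.5 the share was 17 of 100 against 10.4%, and without week 8.5 it was 43 of 100 against 12.3%. The list from the 4 pairs within 1 set had 13 of 100 lower in all 5 pairs across sets, against 1.67%, and a median d of -0.83 in those pairs. Lists chosen without 1 week still rest on the same colonies, and these shares carry no test.

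**Figure D4:**
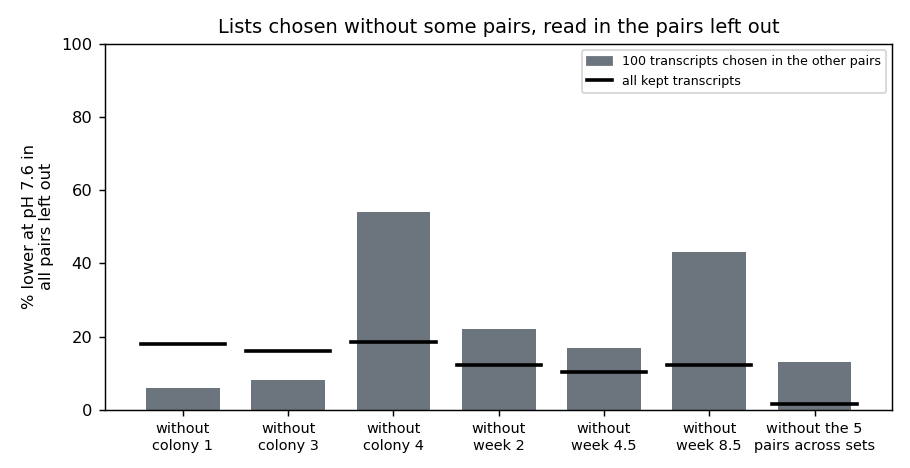
Percent of transcripts lower at pH 7.6 in all pairs left out (y axis), for lists of 100 chosen by the same rule in the other pairs (bars), with the percent over all kept transcripts as black lines. The bars for colonies 1 and 3 lie below their lines, at 6 and 8, and the bars for colony 4 and week 8.5 stand highest, at 54 and 43.

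In a model across all transcripts, few members passed the threshold for pH. All 100 members were among the 56223 transcripts that edgeR's filter on low counts kept. With a mean for each pH and week and colony as a block, edgeR's quasi-likelihood test called 2 members lower at pH 7.6 (0.00534% of all transcripts tested were called lower), the members of ranks 5 and 44, and 98 had an unadjusted p below 0.05, as did 9.28% of all transcripts. DESeq2 called 61 members lower, where 0.608% of all were. With the library set as the block edgeR called 47, where 0.489% of all were. The members were selected on this contrast, so the counts describe how each model treats them. Without colonies 1, 3 and 4 in turn the count was 2, 18 and 0, where 0.0602%, 0.723% and 0% of all were called in either direction. Without the 5 libraries outside the main set of their colony it was 0, where 0.0461% of all were called.

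A difference of the pH effect between weeks was not detected in any member. The rule required a negative d in every pair, which limits such differences. By edgeR's F test 0 members were called (0% of all transcripts were), 3 members had an unadjusted p below 0.05, against 3.15% of all transcripts, and DESeq2 called 0 members (0.0694% of all). The smallest p was that of Transcript_33414 (edgeR adjusted p = 1.00). At pH 7.6 it had 8.03 ± 0.615, 10.1 ± 2.24 and 6.81 ± 2.12 CPM at weeks 2, 4.5 and 8.5, against 9.83 ± 1.09, 17.9 ± 4.78 and 19.0 ± 5.31 CPM at pH 7.9 (SD, n = 3 each). Its mean d at the 3 weeks was -0.27, -0.77 and -1.42, with the same order in each colony. Transcript_59651 came next (edgeR adjusted p = 1.00), with a mean d of -0.97, -0.53 and -2.15. At week 8.5 colonies 1, 3 and 4 had 0.220, 0.0431 and 0 CPM of it at pH 7.6, against 3.02, 0.921 and 2.90 CPM at pH 7.9.

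For differences of the pH effect between colonies, which the rule limits in the same way, edgeR called 0 members (3.78% of all transcripts were called), 3 had an unadjusted p below 0.05, against 20.8% of all, and DESeq2 called 1 (10.5% of all). That member was Transcript_44003 (edgeR adjusted p = 0.0952, with adjusted p between 0.0308 in DESeq2 and 0.713 in the alternatives). Its mean d was -0.44 in colony 1, -1.68 in colony 3 and -0.85 in colony 4. Transcript_32230 (edgeR adjusted p = 0.232, with adjusted p between 0.109 and 0.617 in the alternatives) had -0.72, -2.13 and -1.37.

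The course over time was first described within each pH. Most members were highest at week 4.5, the week at which their d was smallest, and levels within 1 pH contain the d that the rule used. By the mean of the 3 colonies, 82 members had their highest log2 level at week 4.5 at pH 7.6, where 29.8% of all kept transcripts did. At pH 7.9 it was 64 members, where 28.2% of kept transcripts did, and 60 members were highest at week 4.5 at both pH levels, against 9.01%. At pH 7.6 the median over members of log2(CPM + 0.5) was 2.27, 2.93 and 1.97 at weeks 2, 4.5 and 8.5, and at pH 7.9 it was 3.03, 3.74 and 3.26. Over all kept transcripts it stayed between 2.57 and 2.62.

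Members with their highest level at week 4.5 were most frequent in colony 4. There 87 members were highest at week 4.5 at pH 7.6, against 22.1% of kept transcripts, and 76 at pH 7.9, against 32.3%. In colony 1 it was 66 at pH 7.6, against 16.8%, and 53 at pH 7.9, against 31.7%. In colony 3 it was 67 at pH 7.6, against 37.9%, and 39 at pH 7.9, against 24.1%. The libraries of a colony and pH stayed in 1 set over the 3 weeks in both courses of colony 4 and at pH 7.6 in colonies 1 and 3. In the pH 7.9 courses of colonies 1 and 3 the set changed after week 2, and the part of that change in these counts was not tested. The median over members of the difference between week 4.5 and week 2, on the log2 scale, was 0.94 at pH 7.6 and 0.74 at pH 7.9 in colony 4, against -0.21 and 0.04 over all kept transcripts. In colony 1 it was 0.44 and 0.42, against -0.23 and -0.03. In colony 3 it was 0.22 and -0.03, against 0.27 and -0.10, so that at pH 7.6 the members' median there was below that of all kept transcripts.

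**Figure D5:**
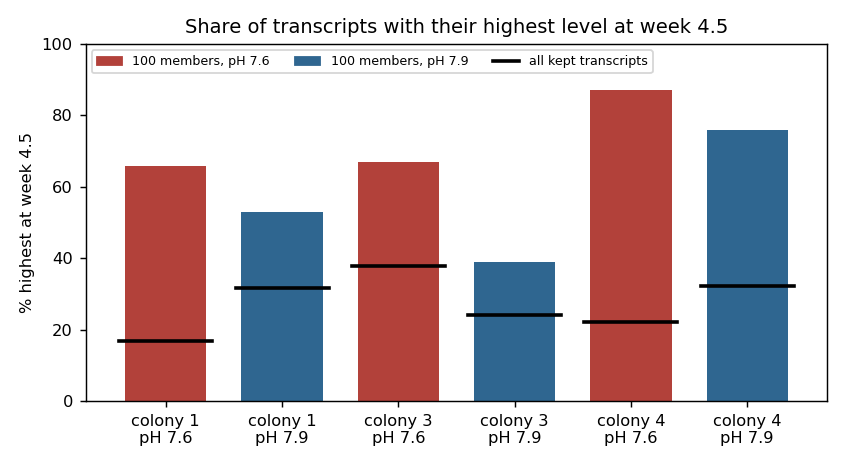
Percent of the 100 members whose highest level fell at week 4.5 (bars, y axis), for each colony and pH (x axis, pH 7.6 in red and pH 7.9 in blue), with the percent over all kept transcripts as black lines. Every bar stands above its line, from 39 in colony 3 at pH 7.9 to 87 in colony 4 at pH 7.6.

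Tests between weeks were made on contrasts averaged over both pH levels, and few single members passed them. The rule did not use these contrasts as such, but it chose on the libraries that enter them. In colony 1 the pH 7.9 library was in set A at week 2 and in set B later. At weeks 4.5 and 8.5 the rule required a higher level in that library of set B than in one of set A. The values between weeks are thus not independent of the rule, and its part in them was not tested. Between week 4.5 and week 2 the median log2 fold change of members was 0.50, against 0.02 over all transcripts tested, and 83 members were above 0, against 51.8% of all. EdgeR called 0 members higher (0.00534% of all were) and 1 lower (0.0374% of all were), and 42 had an unadjusted p below 0.05, against 10.02% of all transcripts. DESeq2 called 13 members higher and 1 lower (1.76% of all in either direction). The median log2 fold change of members was 0.44 without colony 1, with 81 above 0. It was 0.82 without colony 3, with 96 above 0, and 0.22 without colony 4, with 67 above 0. Of all transcripts, 49.3%, 49.5% and 53.0% were above 0 without colonies 1, 3 and 4. The count of members called was 0, 6 and 0 without colonies 1, 3 and 4 in turn, where 0%, 0.311% and 0% of all were called.

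The member called lower was Transcript_4431. In colonies 1, 3 and 4 at pH 7.6 it had 57.4, 54.3 and 35.97 CPM at week 2, 17.5, 13.9 and 14.9 CPM at week 4.5, and 14.4, 12.1 and 9.73 CPM at week 8.5. At pH 7.9 it had 64.5, 63.7 and 59.9 CPM at week 2, 21.2, 29.5 and 30.1 CPM at week 4.5, and 21.4, 26.0 and 16.7 CPM at week 8.5. Every library of week 2 was above every library of the later weeks. The log2 fold change was -1.39 ± 0.20 between week 4.5 and week 2 (SE, edgeR adjusted p = 0.0283) and -1.81 ± 0.20 between week 8.5 and week 2 (SE, edgeR adjusted p = 0.0024), lower in 6 of 6 pairs of libraries each time. Without colonies 1, 3 and 4 the adjusted p was 0.273, 0.0521 and 1.00 for week 4.5 and 0.0729, 0.0292 and 0.0761 for week 8.5, and without the 5 libraries outside the main set of their colony it was 0.17 for week 4.5.

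Between week 8.5 and week 4.5 most members had lower levels at week 8.5. The median log2 fold change was -0.50, against 0.04 over all transcripts tested, and 13 members were above 0. EdgeR called 0 higher (0.0551% of all were) and 4 lower (0.578% of all were), 50 had an unadjusted p below 0.05, against 7.79% of all, and DESeq2 called 0 higher and 16 lower (2.21% of all in either direction). The 4 members had ranks 18, 20, 53 and 66. The count was 0, 1 and 0 without colonies 1, 3 and 4 in turn, where 0%, 0.0265% and 0% of all were called. Without the 5 libraries outside the main set of their colony it was 0, where 0.00658% of all were called.

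The member with the most negative change among these, Transcript_1097, had 2.46, 3.79 and 2.58 CPM in colonies 1, 3 and 4 at week 8.5 and 5.89, 12.3 and 16.3 CPM at week 4.5, both at pH 7.6. At pH 7.9 it had 10.8, 5.38 and 13.6 CPM at week 8.5 and 24.6, 14.8 and 22.4 CPM at week 4.5. Its log2 fold change was -1.54 ± 0.29 (SE, edgeR adjusted p = 0.0317), lower in 6 of 6 pairs. Without colonies 1, 3 and 4 the adjusted p was 0.147, 0.0623 and 0.926, and without the 5 libraries it was 0.204. Transcript_37730 averaged 4.28 ± 2.21 CPM at week 8.5 and 10.6 ± 3.88 CPM at week 4.5 (SD, n = 6 each), with a log2 difference of -1.45 ± 0.27 (edgeR adjusted p = 0.0286, SE), lower in 6 of 6 pairs. Its adjusted p was 0.239, 0.0487 and 0.915 without colonies 1, 3 and 4, and 0.219 without the 5 libraries. The member of rank 66 was Transcript_63452, the member of highest level, with 229.9 ± 129 CPM at week 8.5 and 411 ± 76.4 CPM at week 4.5 (SD, n = 6 each) and a log2 difference of -1.03 ± 0.19 (SE; edgeR adjusted p = 0.0307).

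Between week 8.5 and week 2 the median log2 fold change of members was near 0. It was -0.00017, against 0.05 over all transcripts, 11 members had an unadjusted p below 0.05, against 11.5% of all, and edgeR called 0 higher (0.173% of all were) and 1 lower (0.854% of all were), which was Transcript_4431. DESeq2 called 1 higher and 2 lower (3.51% of all in either direction). The count was 0, 1 and 0 without colonies 1, 3 and 4 in turn, where 0.00177%, 0.297% and 0.0447% of all were called. The median depended on the colonies included. It was -0.25 without colony 1, with 26 members above 0, 0.29 without colony 3, with 79 above 0, and -0.15 without colony 4, with 37 above 0. Of all transcripts, 49.9%, 50.7% and 53.1% were above 0 without colonies 1, 3 and 4.

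The colonies were compared over both pH levels and all weeks. The rule did not use this contrast as such, but 5 of its 9 pairs were across library sets. In colony 3 at week 2 it required a lower level in a library of set B than in one of set C, the set of colony 4. The counts between colonies are thus not independent of the rule, and nothing is read from their direction. Between colony 3 and colony 1 edgeR called 0 members (0% of all transcripts were called) and DESeq2 0 (0%), with 5 members at an unadjusted p below 0.05 in edgeR, against 6.17% of all. Without the 5 libraries outside the main set of their colony, 1 member was called, where 15.5% of all transcripts were. Between colony 4 and colony 1, 10 members were higher (5.35% of all were) and 0 lower (6.59% of all were), with a median log2 fold change of 0.22, against -0.02 over all transcripts. DESeq2 called 14 higher and 1 lower (19.5% of all in either direction), and 20 members had an unadjusted p below 0.05 in edgeR, against 28.2% of all. Without colony 3 the count was 17, where 24.1% of all were called. Between colony 4 and colony 3, 3 members were higher (1.41% of all were) and 0 lower (2.67% of all were), 18 had an unadjusted p below 0.05, against 19.97% of all, and DESeq2 called 11 higher and 1 lower (10.8% of all in either direction). Without the colony 1 libraries the count was again 3, and without the 5 libraries outside the main set of their colony it was 8, where 14.0% of all were called.

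The member with the largest difference between colonies 4 and 1 was Transcript_67414. Its lowest, median and highest levels were 2.89, 4.64 and 6.05 CPM in colony 4 and 0.351, 0.681 and 1.02 CPM in colony 1, so the colonies did not overlap. The log2 fold change was 2.81 ± 0.50 (SE, edgeR adjusted p = 0.00529), higher in colony 4 in 6 of 6 pairs matched by week and pH. Transcript_71398 averaged 9.81 ± 2.73 CPM in colony 4, against 2.09 ± 1.27 CPM in colony 1 and 2.26 ± 2.90 CPM in colony 3 (SD, n = 6 each). Its log2 fold change was 2.36 ± 0.44 against colony 1 (SE, edgeR adjusted p = 0.00627) and 2.53 ± 0.47 against colony 3 (SE, edgeR adjusted p = 0.0148), higher in 6 of 6 pairs each time. In colony 3 its level was 8.07 CPM in the week 2 library at pH 7.9, which was in the set of colony 4, and 0.474 to 1.81 CPM in the other libraries. Transcript_44003 averaged 4.32 ± 2.30 CPM in colony 4 and 1.26 ± 1.21 CPM in colony 3 (SD, n = 6 each), and its log2 difference was 1.95 ± 0.43 (SE; edgeR adjusted p = 0.0255), higher in 6 of 6 pairs although the ranges overlapped. The adjusted p of each of these colony differences was below 0.05 in every alternative that gave one.

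Pairs of members were more alike across libraries of the same pH than pairs drawn from every 20th kept transcript, from which members were not left out. Across the 9 libraries at pH 7.6, the median of Pearson's r over all pairs of members was 0.385, against 0.0555 over pairs drawn from every 20th kept transcript. At pH 7.9 it was 0.336 against 0.0256. With the week means removed the medians were 0.214 against 0.0727 at pH 7.6 and 0.364 against 0.0366 at pH 7.9. The points share libraries and depth, and part of the likeness at pH 7.6 went with the common course over weeks. Levels within 1 pH also contain the d that the rule used, so the choice itself can make members alike. Its part was not tested. Only 1 pair of members had consecutive numbers in the table.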

How the data were processed

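The authors deposited raw read counts for 75743 transcripts in 36 columns, 2 lanes for each of 18 libraries. Per the labels' protocols, RNA was extracted with a Qiagen kit and read single-end on an Illumina HiSeq. The submitters' processing notes list Trimmomatic 0.36, cutadapt 1.15, FastQC and DESeq2 with no role or order. How reads were aligned and counted, and on which transcripts, is not given in the sources used here, so reads shared by near-identical transcripts may have been split or dropped.

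Lanes were summed. Their chi-square statistic per degree of freedom, over transcripts with at least 50 counts, was 0.986 to 1.31. The rule used CPM of library totals, a pseudocount of 0.5, a minimum mean of 1 CPM and the 100 highest transcripts left out, and all CPM printed are of this kind. Members, lists and the library sets were chosen with earlier results of these data known. Tests were edgeR 4.0.16 quasi-likelihood F tests (R 4.3.3) on all 18 libraries, with TMM scaling (factors 0.825 to 1.17), filterByExpr by pH and week (minimum count 10, minimum total 15), and Benjamini-Hochberg adjustment over all 56223 transcripts tested, called below 0.05. Model 1 had 1 term per pH and week combination, with colony added. Model 2 had 1 term per colony and pH combination, with week added, and served only for differences of pH effects between colonies. Fold changes are pH 7.6 over pH 7.9, later over earlier week, and first-named over second-named colony. The SE is the log2 fold change over the square root of F. DESeq2 1.42.0 was an alternative. The edgeR steps were tested on simulated data. A first criterion on the share of changed transcripts recovered was missed in 1 comparison and was then replaced by criteria on sign, false calls and bias.

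Named for pH were the 2 members of most negative mean d. For weeks and colonies, among members called with the same sign in all 6 pairs, the 2 with the largest rise and the 2 with the largest fall were named. For differences of pH effects these were the 2 of smallest p, and for level the member of highest mean CPM at pH 7.9. Others are given by rank.

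Colony is the replicate block because the design text places fragments of each colony at both pH. The deviations of the 2 libraries of a pair from their group means correlated, across transcripts, at -0.411 to 0.780, and above 0.1 in 5 of 9 pairs. The 4 others were colonies 1 and 3 at weeks 4.5 and 8.5.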

Additional observations from a re-analysis of the deposited data

Results flagged for a closer look

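For the named members and for the members' summed CPM and median d, 39 sets of 9 values were examined for a single value far from the rest, and chance flags about 1 in 20. In 3 sets the gap between the outermost value and the next, divided by the whole range, passed Dixon's 95% critical value. Transcript_39539 at pH 7.6 had its highest level, 6.80 CPM, in colony 4 at week 4.5, and the next library stood at 2.09 CPM (gap over range 0.722). Transcript_32230 at pH 7.9 had its highest level, 26.8 CPM, in colony 3 at week 2, and the next library stood at 16.6 CPM (0.506). That library was outside the main set of its colony. Transcript_71398 had its lowest d, -2.92, in the pair of colony 3 at week 2, which holds the same library, and the next pair had -1.37 (0.610). The part of the library set in the last 2 values was not tested.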

How the results depend on the processing

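Among the counts of members and the median of mean d, 51 values under an alternative stayed within 1.5 times of the reported value, or for the median within its spread, and 37 did not. The named members' fold changes and adjusted p kept their direction and side of the threshold in 88 cases, lost the threshold in 13 and reached it in 8. None turned direction. The causes were not tested.

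Without the replicate block the count for pH was 1 and that for colony 4 against colony 3 was 6. It changed no other count by over 1.5 times. With the size factors of DESeq2 in edgeR the count for pH was 1 (0.139% of all were called). DESeq2 gave 61 for pH, 14 for week 4.5 against 2, 16 for week 8.5 against 4.5, 3 for week 8.5 against 2, 12 for colony 4 against 3, and 1 for the difference of pH effects between colonies. The library set in place of colony gave 47, 11, 17 and 5 for pH and the 3 week comparisons in that order. Of all transcripts, 1.39%, 0.840%, 2.70% and 3.86% were called there in either direction. Without the 5 libraries outside the main set of their colony the counts were 0 for pH, 0 for week 4.5 against 2, 0 for week 8.5 against 4.5, 1 for colony 3 against 1 and 8 for colony 4 against 3. In the same order, 0.0461%, 0.00165%, 0.00658%, 15.5% and 14.0% of all transcripts were called.

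Leaving out 1 colony gave 0 to 18 for pH, 0 to 6 for week 4.5 against 2, 0 to 1 for week 8.5 against 4.5 and 0 to 1 for week 8.5 against 2. In the same order, 0% to 0.723%, 0% to 0.311%, 0% to 0.0265% and 0.00177% to 0.297% of all transcripts were called. Colony 4 against 1 had 17 without colony 3, the one colony that can be left out of it. Of the members, 98 to 100 still met the conditions of the rule on level and d with 1 colony left out, and 96 to 100 with 1 week left out. More transcripts then met them, and the list of 100 held 6 to 53 of the members with 1 colony left out. It held 22, 17 and 43 without weeks 2, 4.5 and 8.5, 13 in the 4 pairs within 1 set and 63 with a minimum mean of 5 CPM. With TMM scaling 73 members met the conditions and the list held 72. With a pseudocount of 2 it held 86 and with no minimum 90.

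Colony contrasts and the difference between colonies were not computed with the set in place of colony. The difference between colonies was not computed without the 5 libraries, where colony 3 has no library at pH 7.9. At this depth 16 members had 5 or fewer of 9 differences beyond counting error.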
